A study of Mus musculus with 4 samples.

Results

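The genes described here are 238 processed pseudogenes that took up many reads in RNA sequencing of mouse embryonic telencephalon. They are the genes whose biotype in the deposited tables is processed_pseudogene and they were chosen by their raw counts, which had to sum to at least 200 over 4 libraries. They are 238 of 1357 processed pseudogenes and of 22084 genes in all. Their level is therefore a description and no finding. Before 8 genes were left out by name the rule gave 245, since 1 of the 8 (Gm12816) had fewer counts than the minimum. For 218 members a protein-coding gene with the same UniProt description was taken as the parent gene, and where several had it (52 members) the one with most counts was used.

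A processed pseudogene forms when a messenger RNA is copied back into DNA by the machinery of a retrotransposon and inserted elsewhere in the genome. The copy has no introns and usually no promoter, and genes with abundant messenger RNA, such as those of ribosomal proteins and of Gapdh, have left many. A young copy differs from its parent by few bases, so a short read often matches both, and where it is counted is set by those few bases and by the settings of the aligner and the counter.

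Total RNA came from telencephalic tissue of mouse embryos of the strain background B6D2F2 at day E13.5, and the series asks what loss of Tcf20, a nuclear protein, does there. The groups were knockout embryos with the genotype TCF20-/- (libraries KO26F and KO23M) and carriers of at least 1 wild-type allele (WT25F and WT22M). WT25F is labelled TCF20+/+, while WT22M is wild type by its title and TCF20+/- by its genotype field. A B6D2F2 animal descends from crosses of a C57BL/6 by DBA/2 hybrid, so embryos can differ in which strain's alleles they carry, and genotypes were not analysed here. The extraction protocol names cerebral cortex as the dissected tissue, and which part of Tcf20 was deleted was not given. Whether the embryos were of different litters is not labelled either. The p-values therefore describe only how far these libraries vary among themselves, which may be technical.

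To show how small the differences are that separate a member from its parent, 60-base stretches were read from the GENCODE vM21 transcripts (GRCm38). Each is the gap-free stretch inside the parent's coding sequence with the most differing bases, and capitals mark the bases that differ. Rpl34-ps1, a copy of the gene of ribosomal protein L34, is shown at chr6:71124711-71124770 on the plus strand. It differs from Rpl34 there by T132C, where the parent's base comes first and positions are counted from 1 at the start of the parent's coding sequence.
Rpl34-ps1: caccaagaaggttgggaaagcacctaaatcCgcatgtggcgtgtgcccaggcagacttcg
Rpl34: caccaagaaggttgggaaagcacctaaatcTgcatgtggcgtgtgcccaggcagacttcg
Gm9825, at chr6:7982855-7982914 on the minus strand, is a copy of Rnps1, whose protein takes part in splicing and in the exon junction complex. The stretch holds the substitutions T561C and T582C.
Gm9825: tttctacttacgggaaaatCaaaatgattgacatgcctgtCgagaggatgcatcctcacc
Rnps1: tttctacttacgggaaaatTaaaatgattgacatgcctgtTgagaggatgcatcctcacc
Rps18-ps3, at chr8:107263039-107263098 on the minus strand, is a copy of the gene of ribosomal protein S18. In the stretch it differs by G181C, 1 of 3 mismatches over 456 aligned bases.
Rps18-ps3: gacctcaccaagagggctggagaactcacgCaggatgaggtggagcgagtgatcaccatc
Rps18: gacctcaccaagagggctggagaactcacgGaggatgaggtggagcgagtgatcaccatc
Gm15487, at chr6:37806166-37806225 on the plus strand, is a copy of Atp6v0c, a membrane subunit of the proton pump of lysosomes, and T111C is its only mismatch to the parent transcript over 465 aligned bases.
Gm15487: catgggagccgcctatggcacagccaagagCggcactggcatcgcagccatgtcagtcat
Atp6v0c: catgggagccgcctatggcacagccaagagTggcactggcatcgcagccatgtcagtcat
Gm8730, at chr8:102865352-102865411 on the minus strand, is a copy of Rplp0, which encodes the acidic stalk protein of the large ribosomal subunit. The stretch holds A390G, A393G and A447T.
Gm8730: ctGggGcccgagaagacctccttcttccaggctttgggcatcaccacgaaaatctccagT
Rplp0: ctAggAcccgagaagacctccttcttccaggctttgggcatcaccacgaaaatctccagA
Gm8210, at chr1:43189197-43189256 on the plus strand, is a copy of Rpl29. In the stretch it differs by C72A, 1 of 3 mismatches over 483 aligned bases.
Gm8210: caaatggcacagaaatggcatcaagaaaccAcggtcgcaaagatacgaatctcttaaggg
Rpl29: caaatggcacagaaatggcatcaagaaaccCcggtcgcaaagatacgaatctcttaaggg
Gm7993, at chr5:95975117-95975176 on the plus strand, is a copy of Odc1, the enzyme that starts polyamine synthesis. It holds 7 differences in the stretch, more than any other copy shown.
Gm7993: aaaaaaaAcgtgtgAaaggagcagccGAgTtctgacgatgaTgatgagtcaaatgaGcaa
Odc1: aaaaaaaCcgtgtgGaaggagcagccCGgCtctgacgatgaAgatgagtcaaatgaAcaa
Gm13394, at chr2:28934235-28934294 on the minus strand, is the member with most counts and a copy of Gapdh, a glycolytic enzyme. A346C is its only mismatch over 1000 aligned bases.
Gm13394: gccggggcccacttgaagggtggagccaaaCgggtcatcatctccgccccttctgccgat
Gapdh: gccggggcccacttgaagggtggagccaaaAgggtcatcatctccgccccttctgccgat

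The stretches shown hold the most differences of each pair, and Gm7993 (95.29% identity, 31 mismatches) differs from its parent more than most members do. Over the aligned part, identity to the parent transcript had a median of 99.34% and ran between 69.95% and 100%; 179 of 218 members were at least 98% identical and 31 were identical. The median number of mismatches was 3.5. In vM21 the exon length of the members had a median of 629 bases (117 to 6092), 234 of 238 had 1 exon block, and 232 had the chromosome, start, end and strand of the deposited tables. Of the 50-base stretches in a member, a median of 18.7% occurred in no other gene's transcripts and a median of 71.1% also occurred in the parent's; 45 members had no 50-base stretch of their own. The members lay on 20 chromosomes, 14 of them on X. Another vM21 gene overlapped 80 members, in 7 cases with an exon, and strand cannot separate such reads because the strand setting used in counting is not stated.

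The libraries held 18127024 (KO26F), 18509743 (KO23M), 17944649 (WT25F) and 17791641 (WT22M) counts, and 3 counts, the most a count of 0 leaves room for, equal 0.162 to 0.169 CPM (the count scaled to library size). All 10 telencephalon markers were found, with summed levels between 2600 and 2980 CPM. Tcf20 itself stood at 98.6 and 104 CPM in KO26F and KO23M, against 118 and 111 CPM in WT25F and WT22M, which does not check the genotype labels. The 4 choroid plexus markers, led by Ttr, summed to 975, 759 and 919 CPM in KO26F, KO23M and WT25F but to 189 CPM in WT22M, and the 4 diencephalon markers to 59.4 CPM in WT25F against 11.6 to 14.1 CPM in the others.

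The members held 397154 counts. They made up 0.527% of the counts of KO26F and 0.581% of those of KO23M, against 0.529% for WT25F and 0.557% for WT22M. The 95% exact binomial intervals were 0.5236 to 0.5303 for KO26F and 0.5774 to 0.5844 for KO23M. For WT25F and WT22M they were 0.526 to 0.5328 and 0.5536 to 0.5605. These intervals cover counting error only. The KO mean was 0.554% ± 0.0381 and the carrier mean 0.543% ± 0.0196 (SD, n = 2 each). The difference of 0.0107 percentage points was smaller than the spread between replicates (two-sided exact permutation test, p = 1.0; the smallest p this design allows is 0.333). It was -0.0163 without KO23M, -0.00315 without WT25F and 0.0466 with the 8 genes included. Set against the counts of members and parents together, the members held 6.05% and 6.18% in KO26F and KO23M, against 5.99% and 6.15% in WT25F and WT22M (exact permutation p = 0.667).

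Copies of ribosomal protein genes were the largest group by number: 72 members, 45 of the large and 27 of the small subunit, with 35.9% of all member counts. Glycolysis and metabolism held 11.0% with 7 members only, RNA binding and splicing 7.52% with 18, translation factors 5.64% with 9, cytoskeleton 5.59% with 12, and chromatin and nuclear proteins 5.23% with 19. Proteasome and ubiquitin (12 members) held 3.76%, oxidative phosphorylation and mitochondria (15) 2.97%, other ribosomal proteins (5) 2.02%, and chaperones and folding (7) 1.65%. A further 57 members had other described products (15.4%), and 5 had no description (3.36%).

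The 15 members with most counts held 38.47% of all member counts. Gm13394, the Gapdh copy shown above, led with 5937 and 7114 counts in KO26F and KO23M, against 5788 and 6313 in WT25F and WT22M. Gapdh itself had 1871 and 2097 counts in the KO libraries, against 1912 and 2110 in the carriers. So the copy took up more counts than the gene it was copied from, in every library. Per kilobase of exon, Gm13394 stood at 347 and Gapdh at 26.7 RPKM (CPM per kilobase of exon, averaged over the libraries). Gm5559 and Gm7336, both also copies of Gapdh with 1 mismatch, followed with 8747 and 7401 counts in all, while Gm12070, the remaining Gapdh copy among the members and also with 1 mismatch, had between 87 and 106 counts per library.

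Rps10-ps2, a copy of a small-subunit protein gene, had 3192 and 4057 counts in KO26F and KO23M, against 3126 and 3509 in WT25F and WT22M. Eif4a-ps4, a copy of the gene of the RNA helicase of translation initiation Eif4a1, had 3342 and 3376 counts in the KO libraries, against 3021 and 3100 in the carriers. Both KO libraries of Eif4a-ps4 lay above both carriers, but its log2 fold change was 0.09 only, with an SE of 0.10 (adjusted p = 1.0 in edgeR). The large-subunit copies Gm9794 (Rpl23), Rpl14-ps1, Gm6136 (Rpl6) and AC110377.1 (Rpl21) stayed within a 1.11-fold to 1.29-fold range of CPM over the 4 libraries. The same holds for Gm9800, which has no description and whose best match is Ptma, a small acidic nuclear protein (1.17-fold), for Gm7964 (Hnrnpk, 1.23-fold) and for Gm6166 (Fabp5, a fatty acid carrier, 1.12-fold). Rpl34-ps1 and Gm8730 were the exceptions among the 15, with ranges of 11.8-fold and 32.3-fold.

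**Figure D1:**
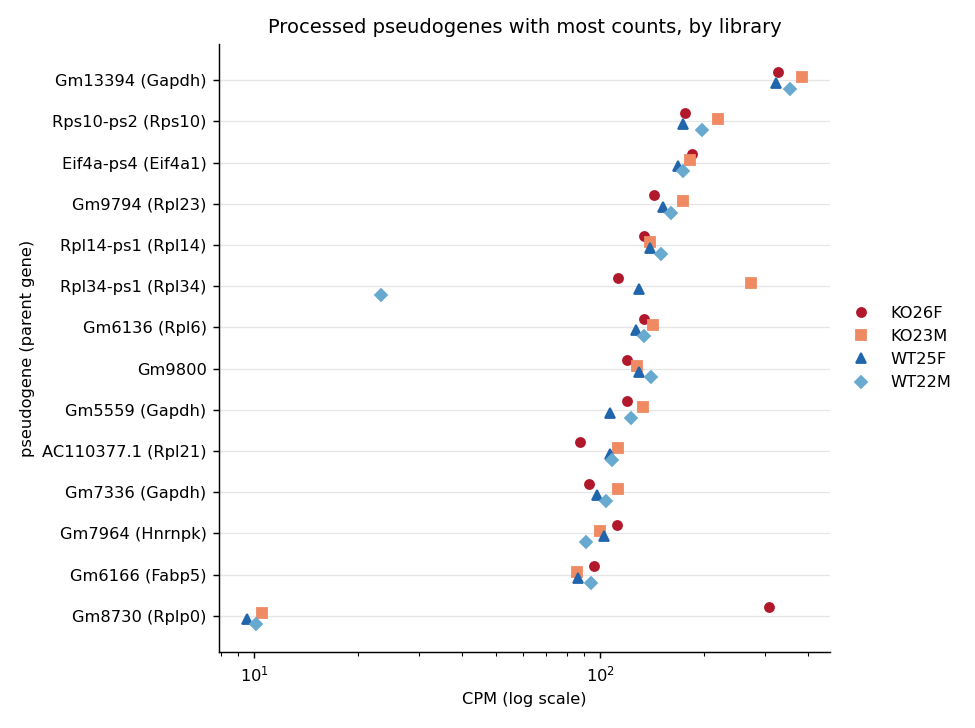
CPM (log axis) of 14 of the 15 members with most counts, with their parent genes in brackets; each point is 1 library, with KO26F and KO23M listed before WT25F and WT22M. The libraries lie close together in each row except Rpl34-ps1, where KO23M is highest and WT22M lowest, and Gm8730, where KO26F stands at 307 CPM and the others near 10 CPM.

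Further leading members of their groups were Gm4204 (a copy of the histone chaperone gene Nap1l1), Dynlt1-ps1 (a dynein light chain) and Gm10123 (the prolyl isomerase gene Ppia). Gm4204 had 1479 and 1451 counts in KO26F and KO23M, against 1389 and 1247 in WT25F and WT22M. Dynlt1-ps1 had 1386 and 1582 counts in the KO libraries, against 1310 and 1442 in the carriers, and Gm10123 had 585 and 691 in the KO libraries, against 615 and 666 in the carriers. For each of these 3 members the groups were close or overlapped.

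Members had a lower level than their parents as a rule. By RPKM the median member stood at 19.7% of its parent, 76 of 218 members were under 10% and 34 were above the parent. Of these 34, 23 had fewer counts than the parent, so their place above it rests on dividing by the length of all the parent's annotated exons, and 8 were not above it in every library. Averaged over the libraries, Rps10-ps2 stood at 386 RPKM, against 167 for Rps10, but with 13884 counts against 28017. The exons in the annotation add up to 496 bases for Rps10-ps2 and 2311 for Rps10. Rpl34-ps1 averaged 381 RPKM, against 48.7 for Rpl34, but in WT22M it stood at 65.4, against 95.1 for the gene. Gm9794 averaged 372 against 182 for its parent and AC110377.1 averaged 215 against 38.1.

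Among the ribosomal protein members, KO23M was the library with the highest CPM for 47 of 72 (65.3%). It was highest for 107 of all 238 members (45.0%) and for 21.0% of the 16252 genes tested. The protein-coding ribosomal protein genes, taken by their symbols, showed the same library at the top for 56 of 77 (72.7%). The large-subunit members summed to 22155 and 29071 counts in KO26F and KO23M, against 23807 and 23748 in WT25F and WT22M. The small-subunit members summed to 9722 and 12700 counts in the KO libraries, against 10204 and 11161 in the carriers. In both sums KO23M was highest and KO26F lowest, so the KO libraries lay on either side of the carriers.

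No member passed the test of KO against carriers (edgeR quasi-likelihood test, Benjamini-Hochberg adjusted p under 0.05 over 16252 genes); 0 of 238 were called, beside 0.0615% of all genes tested. At an unadjusted p under 0.05 there were 8 members (3.36%), beside 2.86% of all genes; DESeq2 called 0 members with 7 at that unadjusted p (2.94%, beside 1.14%), and limma voom called 0 with 7 (2.94%, beside 2.87%). When a library was left out, 6 members were called with KO26F omitted (2.52%, beside 0.258% of all genes), 18 with KO23M (7.56%, beside 0.677%), 7 with WT25F (2.94%, beside 0.591%) and 5 with WT22M (2.1%, beside 0.351%). The lone library of a group is then assumed to vary like the libraries of the other group. Of the 8 genes left out by name, 3 were called when they were included. The median log2 fold change of the members was 0.04, beside 0.002 for all genes tested, and 141 members were above 0 (59.2%, beside 50.7%). Both KO libraries lay above both carriers for 36 members (15.1%, beside 13.6% of genes tested) and below both for 27 (11.3%, beside 13.4%). By group, the median log2 fold change lay between -0.04 for the 7 glycolysis and metabolism members and 0.12 for the 5 other ribosomal members.

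The 8 members at an unadjusted p under 0.05 are named for that p, after their values were seen. Gm6682, a copy of the tubulin gene Tuba1c, had 76 and 110 counts in KO26F and KO23M, against 44 and 46 in WT25F and WT22M. Its KO libraries lay above its carriers, with a log2 fold change of 1.01 (SE 0.28, adjusted p = 0.849 in edgeR). Gm7353, a copy of the zinc finger gene Zc3h3, had 317 and 306 counts in the KO libraries, against 167 and 230 in the carriers (log2 fold change 0.61, SE 0.18, adjusted p = 0.898 in edgeR). Gm3756, a copy of the tubulin gene Tuba1b, lay the other way, with 1162 and 1244 counts in the KO libraries, against 1437 and 1789 in the carriers (log2 fold change -0.46, SE 0.12, adjusted p = 0.633 in edgeR). Gm3362, a copy of Rpl23a, had 274 and 347 counts in the KO libraries, against 388 and 519 in the carriers (log2 fold change -0.59, SE 0.17, adjusted p = 0.928 in edgeR). Gm13456 (Eef1a1), Gm14303 (Rps29), Rpsa-ps2 and Rps10-ps1 had log2 fold changes between 0.31 and 0.57. In a fit with the letter of the title (F or M) as a block, 5 members were called (2.1%, beside 0.757% of all genes tested): Gm6682 (0.99, adjusted p = 0.045), Gm7353 (0.62, 0.00815), Gm3756 (-0.46, 1.09e-05), Gm3362 (-0.58, 0.00209) and Gm14292 (-1.31, 1.46e-08), where each first value is the edgeR log2 fold change. That fit leaves 1 residual degree of freedom, so the size of its p-values gives no measure of how far embryos differ. For Gm14292 the letters differ in the size of the change. It had 39 counts in KO26F against 173 in WT25F, and 193 in KO23M against 312 in WT22M.

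**Figure D2:**
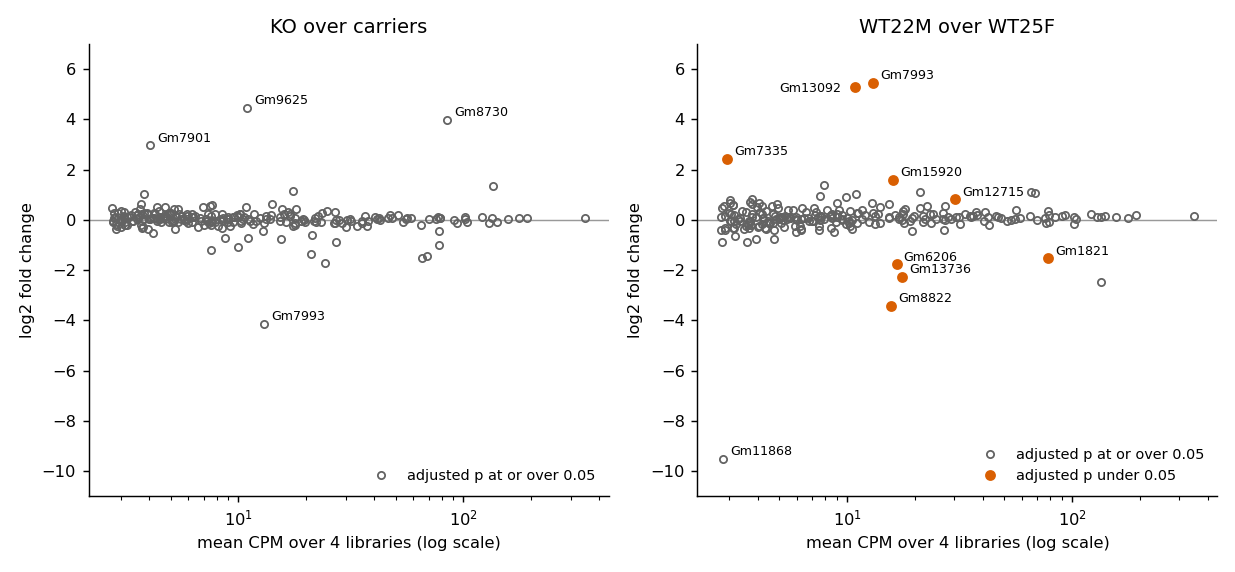
Log2 fold change of each member against its mean CPM (log axis), for KO over carriers (left) and WT22M over WT25F (right); filled points passed the edgeR threshold of 0.05. On the left no point is filled, and Gm8730, Gm9625 and Gm7901 lie above 2 and Gm7993 below -2; on the right 9 points are filled, and Gm11868, with a count of 0 in WT22M and so a fitted value with no set size, is the lowest point.

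Large fold changes without a call came from members in which 1 library stood apart. Gm8730 had 5571 and 195 counts in KO26F and KO23M, against 171 and 180 in WT25F and WT22M, so KO26F alone was high. Its log2 fold change of 3.99 had an SE of 2.29 (adjusted p = 1.0 in edgeR). Gm9625, another copy of Rplp0 at chr13:67810246-67811200, had 746 and 16 counts in the KO libraries, against 11 and 22 in the carriers. Gm14165, a copy of Rplp0 under the count minimum and chosen after its values were seen, had 35 counts in KO26F and 0 in the other libraries. Rplp0 itself had 25480 and 38909 counts in KO26F and KO23M, against 34172 and 36563 in WT25F and WT22M, so it was lowest where its copies were highest. Summed over all 4 genes of this description, the counts spanned 1.2-fold in CPM.

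The ratio of highest to lowest CPM over the 4 libraries, called the range here, had a median of 1.34 over the members and 1.19 over 12068 protein-coding genes with at least 200 counts. It reached 2-fold for 31 members (13.0%), beside 1.77% of those protein-coding genes and 11.4% of all genes tested. It reached 4-fold for 21 members (8.82%), beside 0.315% of the protein-coding genes. This difference was not tested, and in both sets a gene high in 1 library could reach the count minimum through that library alone. The members had a median of 620 summed counts. The protein-coding genes were not matched to that level, and a range widens at low counts. Of 29 members with a 2-fold range and a parent, the sum of member and parent counts stayed under 2-fold for 23, the total over all genes of the description for 25, and the parent alone reached 2-fold for 6. Where the parent has far more counts than the copy, the sum follows the parent whatever the copy does. These numbers therefore do not measure whether gene and copy offset each other. Across 218 members identity to the parent and range had a Spearman correlation of -0.21, and across 238 the share of unique stretches and range one of 0.14; these points share libraries and parents, and the values are descriptions. Across 216 members the KO over carrier log2 fold changes of member and parent had one of -0.09, and pairs with opposite orders are named here for their values.

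**Figure D3:**
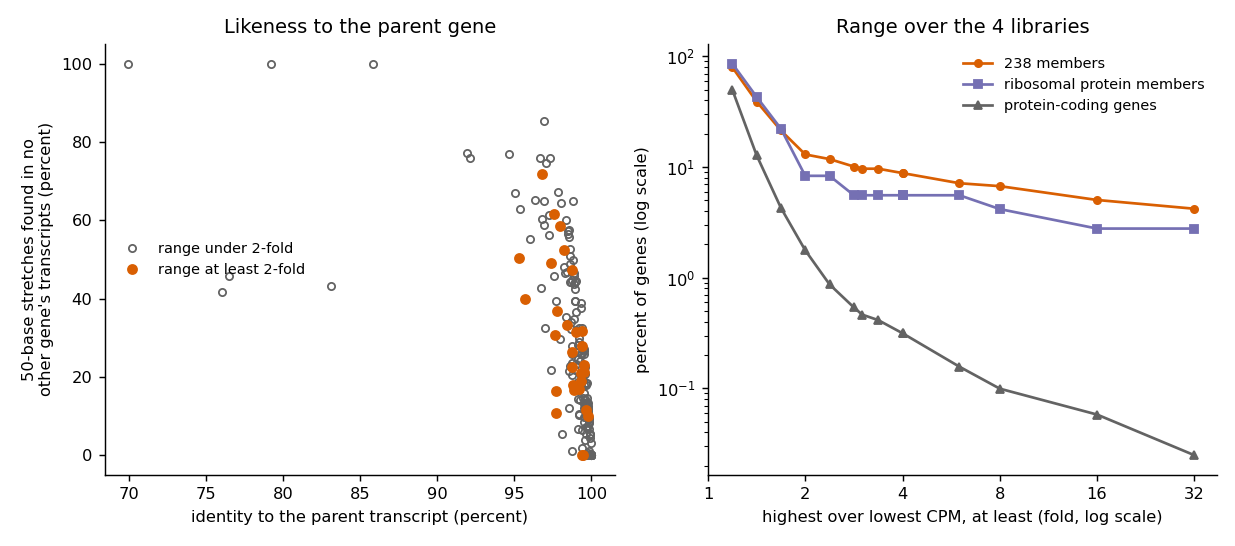
Left, identity to the parent transcript against the share of 50-base stretches found in no other gene, for the 218 members with a parent; filled points have a range of at least 2-fold. Right, percent of genes (log axis) whose range reaches each fold (log axis), for all members, for the 72 ribosomal protein members and for protein-coding genes with at least 200 counts: at 2-fold these are 13.0%, 8.33% and 1.77%. The sets were not matched for count level.

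In 16 of the 21 members with a 4-fold range, 1 library lay at least 4-fold in CPM above or below all the others and so stood apart, with the count of 0 of Gm11868 set to 3 counts. Among the 16, 6 were low in KO26F alone, 3 low in WT22M alone, 2 low in KO23M alone and 1 low in WT25F alone. Another 2 were high in KO26F alone, 1 in KO23M alone and 1 in WT22M alone. Of these, Gm9625, Gm7901 and Gm7993 reached the count minimum only through the library in which they were high. The rule thus favoured this pattern. In all 16, a KO library stood apart for 11 members and a carrier for 5. Among the 11, 6 were low and 2 high in KO26F alone. The same was not counted over other genes, so these numbers show no tendency of the KO group. Of the remaining 5 members with a 4-fold range, Tma7-ps was lowest in KO23M (24.8% of its highest library) and Gm7335 in WT25F (18.8%). Both were just short of the mark for standing apart. Gm11868 was near 0 in KO23M and WT22M, Gm9770 was lowest in KO23M and WT25F (21.0% and 28.3%), and Gm10154 was graded.

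**Figure D4:**
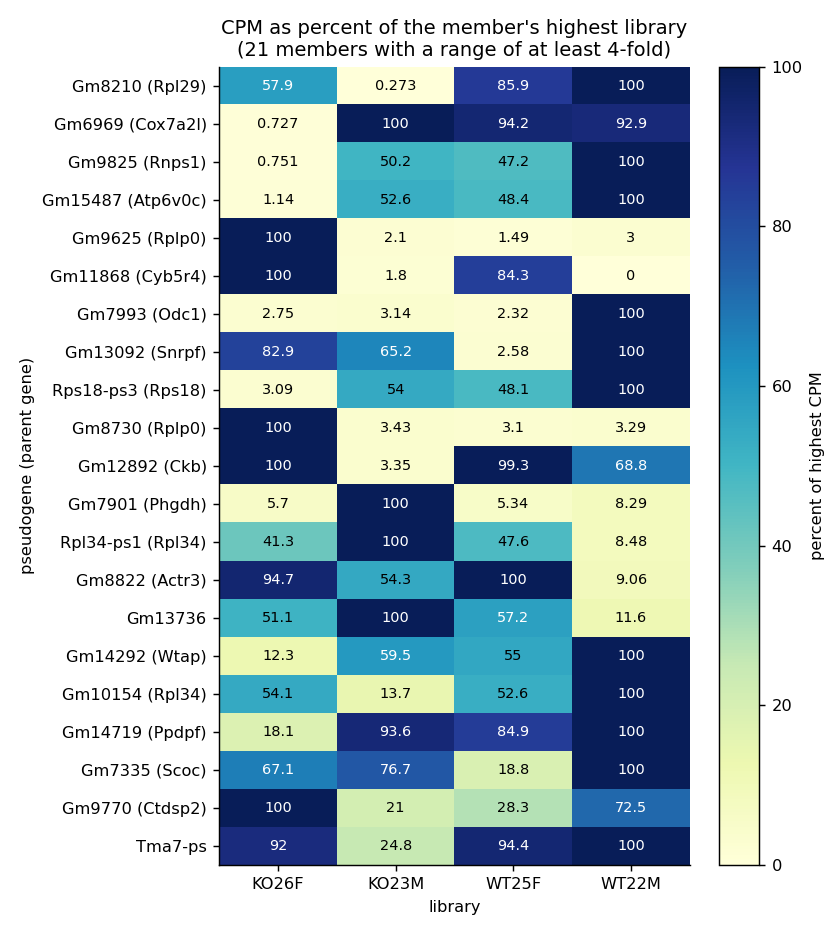
CPM of the 21 members with a range of at least 4-fold in each library, as percent of the member's highest library (colour and printed value), ordered by range, with parent genes in brackets. Gm9825, Gm15487, Rps18-ps3 and Gm14292 share a pattern in which KO26F is lowest, WT22M highest, and KO23M and WT25F lie between 47.2% and 59.5%.

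Rpl34-ps1 and Rpl34 traded places across the libraries. Rpl34-ps1 had 2047 and 5056 counts in KO26F and KO23M, against 2331 and 412 in WT25F and WT22M. Rpl34, on chromosome 3, had 2158 and 220 counts in the KO libraries, against 2382 and 4470 in the carriers. The gene was lowest where the copy was highest and the reverse, and KO26F and WT25F held both at like counts. Alone, the copy spanned 11.8-fold and the gene 21.1-fold, while their sum spanned 1.23-fold. Gm10154, a second copy of Rpl34, had 135 and 35 counts in KO26F and KO23M, against 130 and 245 in WT25F and WT22M, so like the gene it was lowest in KO23M and highest in WT22M. For KO against carriers, Rpl34-ps1 had a log2 fold change of 1.35 (SE 1.28, adjusted p = 1.0 in edgeR), and the total over the 7 genes of the description one of -0.09.

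Gm9825 had 18 and 1229 counts in KO26F and KO23M, against 1119 and 2352 in WT25F and WT22M. Rnps1 had 6385 and 4449 counts in the KO libraries, against 4148 and 2461 in the carriers. The copy was lowest in KO26F and highest in WT22M, and the gene the other way round, while both were slightly higher in KO23M than in WT25F. Their sum spanned 1.31-fold where Gm9825 spanned 133-fold. Rps18-ps3 had 23 and 411 counts in KO26F and KO23M, against 355 and 731 in WT25F and WT22M. Rps18 had 6516 and 4445 counts in the KO libraries, against 3712 and 667 in the carriers. Here too KO26F and WT22M changed places between the gene and its copy, but the sum of both still spanned 4.59-fold. AL607105.1, a protein_coding entry of the same description on chromosome 13 and chosen after its values were seen, had 69 and 449 counts in KO26F and KO23M, against 420 and 715 in WT25F and WT22M, in the order of Rps18-ps3.

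Gm15487 had 28 and 1320 counts in KO26F and KO23M, against 1179 and 2413 in WT25F and WT22M. Atp6v0c had far fewer, 276 and 248 in the KO libraries, against 249 and 191 in the carriers, so the sum followed the copy and spanned 8.73-fold. Gm14292, a copy of Wtap, a subunit of the complex that methylates adenosine in RNA, had 39 and 193 counts in KO26F and KO23M, against 173 and 312 in WT25F and WT22M. These 4 members with 1 pattern were picked out after their values were seen. They lie on chromosomes 6, 6, 8 and 2, while their parents all lie on chromosome 17: Wtap starts at 12966796, Atp6v0c at 24163866, Rnps1 at 24414675 and Rps18 at 33951999 (GRCm38). Gm6969, a copy of Cox7a2l, whose gene starts at 83501919 on the same chromosome, had 5 and 702 counts in KO26F and KO23M, against 641 and 627 in WT25F and WT22M, so KO26F alone was low. In all, 5 of 19 members with a 4-fold range and a parent had it on chromosome 17 (26.3%), beside 18 of all 218 members with a parent (8.26%). The 5 are these same members, and chromosome 17 was chosen after their parents were seen. The difference in share was not tested.

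**Figure D5:**
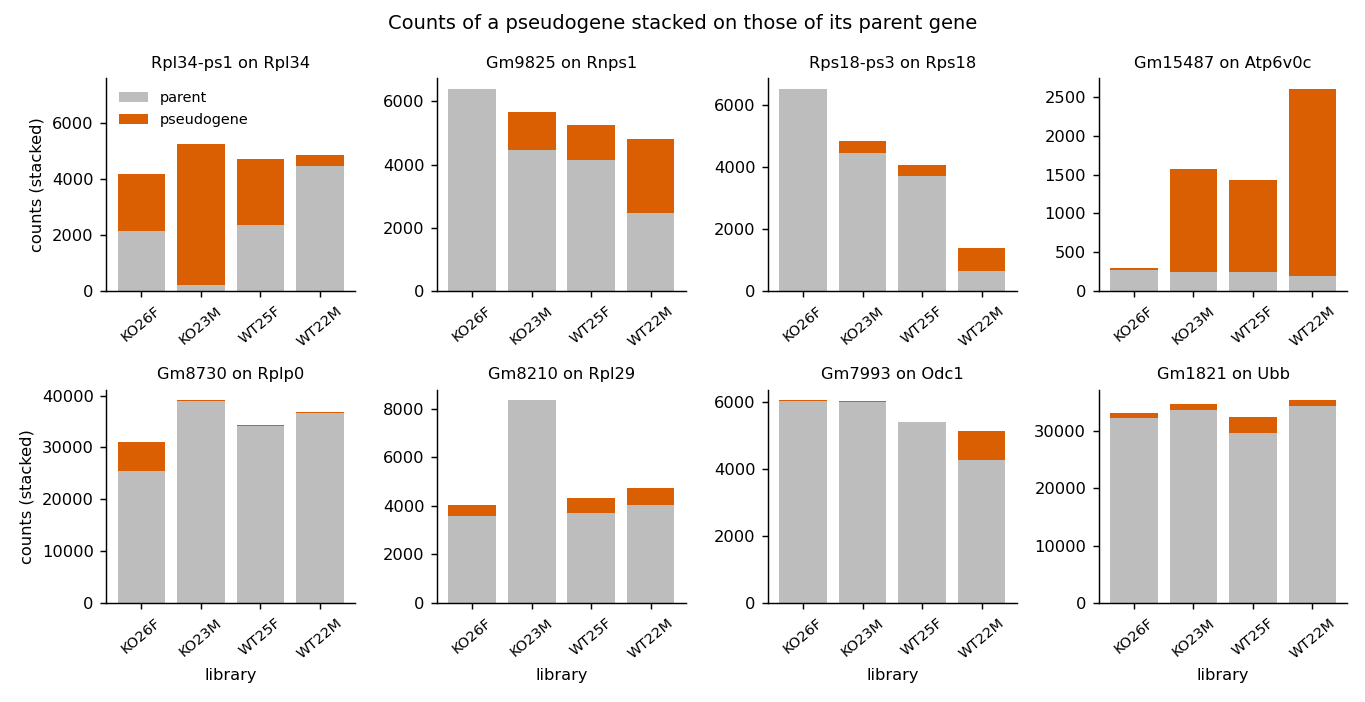
Counts of 8 members (upper part of each bar) stacked on those of their parent genes (lower part), per library, with KO26F and KO23M left of WT25F and WT22M. For Rpl34-ps1 and Gm9825 the height changes less than the split, for Gm15487 nearly all of the bar is the copy in 3 libraries, and for Rplp0, Odc1 and Ubb the copy is a small part of the bar.

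Gm8210, in an intron of Fhl2 on the opposite strand, had the widest range, 366-fold over the 2 counts of its lowest library (95% exact counting interval 101 to 3030). It had 415 and 2 counts in KO26F and KO23M, against 610 and 704 in WT25F and WT22M. Every 50-base stretch of Gm8210 also occurred in transcripts of other genes, and 83 other genes shared at least 1 of them. Rpl29 had 3602 and 8350 counts in the KO libraries, against 3717 and 4041 in the carriers, so it was highest in the library in which its copy was near 0. The other copies of Rpl29 among the members, Gm13841 and Gm10709, were highest in KO23M, with 1348 and 479 counts there. Gm12892, a copy of the creatine kinase gene Ckb, was low in the same library, with 234 and 8 counts in KO26F and KO23M, against 230 and 158 in WT25F and WT22M.

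Gm7901, a copy of Phgdh, the first enzyme of serine synthesis, in an intron of Iqcm on the opposite strand, had 14 and 251 counts in KO26F and KO23M, against 13 and 20 in WT25F and WT22M. Gm11868, a copy of Cyb5r4, had 109 and 2 counts in the KO libraries, against 91 and 0 in the carriers. So KO23M and WT22M, the libraries with M in their titles, were near 0 for Gm11868, and it was the only member with a count of 0 in a library. Over the 2 counts of KO23M its range was 55.7-fold (95% exact counting interval 15 to 465). The parents Ckb, Phgdh and Cyb5r4 spanned 1.32-fold, 1.3-fold and 1.21-fold, under the 2-fold mark.

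WT22M was also set against WT25F, 1 library against 1, in a fit whose spread came from the KO libraries, so it is a test of 1 library against another and not of genotypes. That spread has 1 residual degree of freedom, so the size of its p-values gives no measure of how far embryos differ. There, 9 members passed the edgeR threshold (3.78%, beside 0.714% of all genes tested), and 20 had an unadjusted p under 0.05 (8.4%, beside 4.88%). Of the 9, 5 were higher in WT22M (2.1%, beside 0.178%) and 4 lower (1.68%, beside 0.535%). Members whose KO libraries differ, such as Rpl34-ps1, cannot easily pass this test. The calls depend on the fit, since DESeq2 called 5 (2.1%, beside 0.203% of all genes), and no member and no other gene was called without a filter on low counts or with the spread of KO against carriers. They are therefore given as a description of these libraries. For counts summed over each description, the log2 fold changes of the totals were -2.26 for Gm13736 and 4.61 for Gm13092. The total of Gm7335 had -1.43, opposite to the member, and those of the other called members lay between -0.14 and 0.17. The description of Gm13736 holds 1 gene, so its total repeats the member's own counts. Its best match Srp9 carries the description 40S ribosomal protein S2 and is not in that total. That of Gm13092 adds Snrpf, which had 5 counts or fewer in every library. The choroid plexus, diencephalon and erythroid markers differ between WT22M and WT25F (189 against 919, 11.6 against 59.4 and 527 against 948 CPM summed, WT22M first). Their part in the calls of this fit was not tested.

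Among the higher members, Gm7993 had 856 counts in WT22M and 20 in WT25F, with 24 and 28 in KO26F and KO23M, a log2 fold change of 5.45 (SE 0.32, adjusted p = 3.58e-59 in edgeR). WT22M alone was high, and Odc1 was lowest there, with 4288 counts in WT22M and 5408 in WT25F. Gm13092, a copy of Snrpf, a core protein of the spliceosome's small nuclear particles, in an intron of Rere on the opposite strand, had 308 counts in WT22M and 8 in WT25F, with 260 and 209 in the KO libraries. Here WT25F alone was low (log2 fold change 5.29, SE 0.39, adjusted p = 1.47e-38 in edgeR), and Snrpf had 5 counts or fewer in every library. Gm7335, a copy of Scoc, had 79 counts in WT22M and 15 in WT25F (log2 fold change 2.43), while Scoc had 293 in WT22M and 1017 in WT25F (log2 fold change -1.75, adjusted p = 1.5e-16 in edgeR). The gene and its copy moved in opposite directions. Gm15920, a copy of the complex I gene Ndufa12 in an intron of Rabgef1 on the same strand, had 386 counts in WT22M and 132 in WT25F (log2 fold change 1.59). Gm12715, a copy of the actin gene Actg1 that overlaps the small RNA gene Gm22801, had 742 counts in WT22M and 433 in WT25F (log2 fold change 0.82, SE 0.20, adjusted p = 0.00638 in edgeR), the smallest of the 5 changes.

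Among the lower members, Gm8822, a copy of Actr3, a subunit of the actin-nucleating Arp complex, lies on X and had 39 counts in WT22M and 434 in WT25F (log2 fold change -3.43, SE 0.29, adjusted p = 6.34e-29 in edgeR). Gm13736, described as a signal recognition particle protein and best matched by Srp9, had 66 counts in WT22M and 327 in WT25F (log2 fold change -2.26). Srp9 itself had 1003 counts in WT22M and 744 in WT25F. Gm6206, a copy of the ubiquitin ligase gene Rfwd2 (Cop1), also on X, had 118 counts in WT22M and 414 in WT25F (log2 fold change -1.77). Gm1821, a copy of the polyubiquitin gene Ubb, had 932 counts in WT22M and 2796 in WT25F (log2 fold change -1.54, SE 0.18, adjusted p = 4.62e-14 in edgeR). KO26F and KO23M had 814 and 1083 counts of Gm1821, so WT25F alone was high. Ubb itself had 34468 counts in WT22M and 29595 in WT25F.

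The authors' deposited tables set each library against WT25F and mark genes as significant. They mark 14 members for KO26F (5.88%, beside 1.96% of the genes listed), 11 for KO23M (4.62%, beside 2.9%) and 14 for WT22M (5.88%, beside 3.62%). In all, 26 members carry a mark in the authors' deposited tables, and 3 carry it in each of the 3, namely Gm13092, Gm1821 and Gm7335. The 3 comparisons share WT25F, in which Gm13092 and Gm7335 were lowest and Gm1821 highest.

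Near the count minimum, Gm7331 and Tubb4b-ps1 came in with 200 counts and Gm12663 with 201, while Gm12993, Gm6768 and Itpa-ps1 stayed out with 198 each. Gm7331, whose description is the ubiquitin fusion with ribosomal protein L40, had 55 and 63 counts in KO26F and KO23M, against 40 and 42 in WT25F and WT22M.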

How the data were processed

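Counts per gene were taken from 3 tables, each of 1 library against WT25F, in which the authors deposited whole-number counts, normalized CPM values (a count of 0 written as 0.5 counts), a fold ratio, its log2 and p-values, per the file headers. Bowtie2 2.2.3, TopHat2 2.0.12, HTSeq 0.6.0 and the build mm9 are named in the submitters' processing notes; strand and multiple-match settings were not given. Gene positions in the tables are those of GRCm38. The tables were joined by gene identifier, with a missing gene set to 0. Of the 22084 genes, 19626 are in each of the tables, and so are all 238 members.

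All genes were tested by edgeR 4.0.16 on the counts (quasi-likelihood, robust, TMM, filterByExpr, Benjamini-Hochberg threshold 0.05), as KO against carriers and as WT22M against WT25F in a fit of 3 groups. All 238 members passed the filter. DESeq2 1.42.0, limma 3.58.1 (voom), RLE size factors, other filters, totals over 1 description, a block and left-out libraries were the alternatives. The edgeR test was tried on simulated counts first. Standard errors are the absolute log2 fold change over the square root of the F statistic. CPM is on joined totals. Members were aligned to GENCODE vM21 transcripts with BLAST 2.17.0 (e-value limit 1e-10). RPKM is mean CPM per kilobase of the union of a gene's exons. R 4.3.3 and Python 3.11.15 were used.

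Members, lists and tests were chosen with earlier results of these data known. Named are the 15 members with most counts (1 of them is not reported here), those past a threshold, the 12 with the widest range, the 3 nearest the minimum on either side and the leading member of each group with at least 3; further members with a 4-fold range and genes of the same descriptions were chosen after their values were seen. The 8 genes were left out by name: Vcp-rs, Rpl3-ps1, Rpl3-ps2, Gm12816, Gm9855, Gm14150, CT571252.1 and AC154767.3.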

Additional observations from a re-analysis of the deposited data

Results flagged for a closer look

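Gm9770, a copy of the phosphatase gene Ctdsp2, was picked out because the KO library stood above the carrier in one title letter and below it in the other. It had 257 counts in KO26F and 72 in WT25F, a log2 ratio of 1.82. It had 55 counts in KO23M and 183 in WT22M, a log2 ratio of -1.79. The ratios differ by 3.61, and with 1 library in each place the difference was not tested. Ctdsp2 itself had 3598 and 3855 counts in KO26F and KO23M, against 3587 and 3596 in WT25F and WT22M.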

How the results depend on the processing

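For KO against carriers, 0 members were called also under RLE size factors, DESeq2, limma voom, no filter, at least 1 CPM in 2 libraries, totals over 1 description, and a minimum of 100 or 500 counts. With the title letter as a replicate block 5 were called (2.1%, beside 0.757% of all genes), and with the 8 genes included 3; leaving out 1 library gave between 5 and 18 (beside 0.258% to 0.677% of all genes). The letters are shared by 2 pairs of libraries only, and the labels do not say what else they mark. The fit with the block leaves 1 residual degree of freedom. For WT22M against WT25F, 9 calls became 5 in DESeq2 (2.1%, beside 0.203%), 0 without a filter and 0 with the spread of KO against carriers. For totals over a description 4 were called, of 187 totals that include members, beside 98 of all 15526 totals tested. Of these 4, 2 belong to called members and keep their direction, and 1 has the opposite direction. The 2 are the total of Gm13736, which is its own counts without Srp9, and that of Gm13092, whose parent Snrpf had 5 counts or fewer. The remaining 1, of ribosomal protein S18, belongs to none of the 9. Without a KO library no spread is left, so this fit was not run with a KO library left out.

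The difference in share lay between -0.0163 and 0.0377 when 1 library was left out, so its direction depends on the library; with the 8 genes included it was 0.0466. With a minimum of 100 counts, 56 members reached a 2-fold range, and with 500 counts 22. More genes pass a lower minimum, and shares at these minimums are not given, so the counts cannot be compared as shares. Totals over a description turned the sign of the log2 fold change for Rpl34-ps1 (-0.09) and Gm8730 (-0.04), KO against carriers. They also turned it for Gm1821 (0.17), Gm7335 (-1.43) and Gm7993 (-0.02), WT22M against WT25F. A total adds the parent's counts where a parent with that description was found, which was not so for Gm13736. Where the parent holds most of the counts, as for Gm8730, Gm1821 and Gm7993, the total mainly follows the parent. Gm13394 lay between -0.07 and 0.20 with 1 library left out. Near the minimum a member had few counts per library (40 to 63 for Gm7331), which limits what small differences can show.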
